A study of Rattus norvegicus with 19 samples.

Results

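The comparison set 3 arrays of rat deep motor cortex taken 1 day after a spinal cord lesion against 4 arrays of control rats, chosen by their labels from the 19 arrays of the series. The rats were adult female Fischer 344 animals. Lesioned rats had the dorsal columns of the cervical spinal cord cut at C3 with a wire knife, and the cortex taken was the inferior portion of motor areas for fore- and hindlimb, with layer V in it. The labels call the other group control and do not say whether these rats had a sham operation or a laminectomy, so lesion and surgery cannot be told apart. The remaining groups, days 3, 7, 14 and 49 after the same lesion with 3 arrays each, entered as shared spread and as later times. Each array held biotin-labelled cRNA made from 6 ug of total RNA extracted with Trizol. The labels name separate samples without saying that each is 1 rat, and p-values therefore measure the spread between these samples.

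The dorsal columns of the rat carry most corticospinal axons, whose cell bodies lie in layer V, so the cut removes the far end of these axons while their cell bodies stay in the sampled cortex. The tissue also holds astrocytes, microglia, oligodendrocytes, vessels and their fibroblasts, and other neurons. The acute phase response is a coordinated rise of secreted and metal-binding proteins that cytokines of the interleukin-6 family drive through STAT3 and C/EBP factors, with glucocorticoids, best known in liver and also seen in astrocytes and brain vessels. In bulk tissue fewer cells of a type and less RNA per cell cannot be told apart.

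Signals are on the log2 scale, 1 value per probe set and array, so a log2 difference of 1 is a doubling. In the 17 arrays of the fit the median correlation of an array with the others was 0.994 to 0.997. Day 14 replicate 2 (0.931) and day 49 replicate 2 (0.969) stood apart and were left out of the shared spread, since neither is in the comparison. The 3' minus 5' signal of beta-actin, which grows as RNA degrades, was 0.877 to 1.09 in the control arrays and 0.890 to 1.26 in the day 1 arrays. Day 1 replicate 3 had the highest value of these 7 arrays.

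At day 1 a small set of transcripts rose and fewer fell. By brightest probe set the largest rises were those of the chitinase-like gene Chi3l1, the angiotensinogen gene Agt, the methyltransferase gene Inmt and the metalloreductase gene Steap4, and the largest falls those of the lumican gene Lum and the retinaldehyde dehydrogenase gene Aldh1a1. Limma called 68 of 31042 probe sets (0.219%), 46 higher (0.148%) and 22 lower (0.0709%), at an adjusted p under 0.05, and 2210 had an unadjusted p under 0.05. With all 19 arrays in the fit the same differences gave 11 calls (0.0354%), all among the 68, and 510 unadjusted p-values under 0.05, fewer than the 1552 that the threshold alone would give. With the replicate number as a block there were 46 calls (0.148%), 39 of them among the 68. The arrays were taken as paired by these numbers, but the calls printed are those without the block unless it is named. All 68 had their 3 day 1 arrays beyond all 4 control arrays, as did 6.94% of all probe sets. The count rested on single arrays: it was 35 without control replicate 1, 40 without control replicate 4, 37 without day 1 replicate 1 and 24 without day 1 replicate 2.

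The called probe sets stand for 51 named genes, 36 higher and 15 lower, and 13 called probe sets have no named gene here. By the brightest probe set of each gene, 34 genes rose and 14 fell, of 14217 measured. With the replicate number as a block 12 of the 34 and 10 of the 14 lost the call. The median size of the 68 differences was 0.57, and 6 reached 1. Of the 48 genes, 16 kept their call with each of the 7 arrays left out in turn, 15 of them higher: Agt, Steap4, Lbp, Cebpd, Mt2A, S1pr3, Igfbp6, Crabp2, Spon2, Lgi4, Timp4, Prodh, Cdh15, Fxyd3 and Slc50a1. Rem2 was the lower one. Another 19 genes kept the call in 2 or fewer of the 7. With 19 arrays 9 of the 48 genes stayed past the threshold, 8 higher (Agt, Spon2, Crabp2, Igfbp6, Lbp, Lgi4, Ifitm3 and Pla1a) and 1 lower (Rem2). The other 39, Steap4, Cebpd, Mt2A, S1pr3, Timp4, Prodh, Cdh15, Fxyd3 and Slc50a1 among them, lost the call there. With only the groups compared in the fit 19 probe sets were called, 19 higher and 0 lower. In that fit Rem2 was not called, nor were Cebpd, Mt2A, S1pr3, Lgi4, Timp4, Prodh, Cdh15 and Fxyd3.

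**Figure D1:**
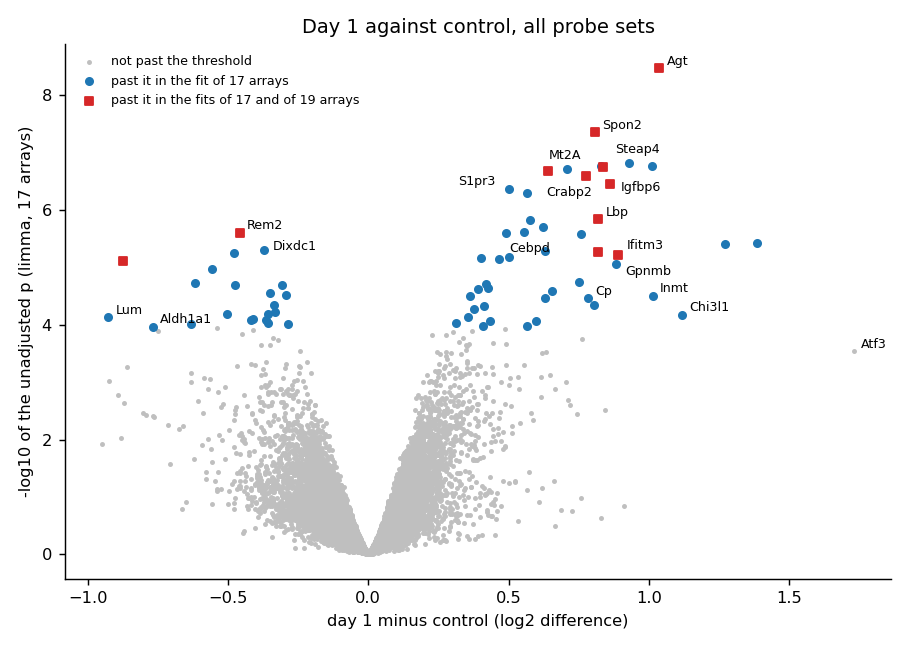
Each point is 1 of 31042 probe sets, with the day 1 minus control log2 difference on the x axis and -log10 of the unadjusted limma p on the y axis. Blue circles passed the adjusted threshold with 17 arrays, red squares with 17 and with 19 arrays. Agt has the smallest p, and Atf3, at a difference of 1.73, lies beyond all others on the x axis without passing.

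A part of the acute phase genes rose. Agt encodes angiotensinogen, an acute phase protein and the precursor of angiotensins, made by astrocytes in brain. Its log2 signals were 4.81, 4.82, 4.83 and 4.92 in the control arrays and 5.85, 6.06 and 5.74 at day 1. The groups lay far apart and the control arrays were within 0.2 of each other. The rise was 2.05-fold (log2 difference 1.04, SE 0.09, adjusted p = 0.000106), and Agt stayed called in each of the 16 alternatives in which it could be tested. A filter that kept only probe sets above the median signal left Agt out as too dim, and Lbp, Chi3l1 and Pla1a with it.

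Steap4, a metalloreductase that reduces iron and copper and is induced by interleukin-6 family cytokines in liver, had 6.22, 6.13, 6.11 and 6.20 in the control arrays and 7.08, 7.21 and 7.00 at day 1. No day 1 array came near the controls. It rose by 0.93 (SE 0.10, adjusted p = 0.000817), and of 17 alternatives it lost the call in the fits of 19 arrays, with and without a beta-actin covariate. Lbp, which binds bacterial lipopolysaccharide and hands it to Cd14, had 4.29, 4.17, 4.06 and 3.99 in the control arrays and 4.83, 5.15 and 4.86 at day 1. Its groups were separate, and it rose by 0.82 (SE 0.11, adjusted p = 0.0034). Cebpd, the C/EBP factor that cytokines and glucocorticoids induce, went from 7.24, 7.45, 7.29 and 7.50 to 7.88, 8.05 and 7.85. Here too the groups were separate, with a rise of 0.55 (SE 0.08, adjusted p = 0.0043).

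Cp encodes ceruloplasmin, the copper-bearing ferroxidase of plasma, which astrocytes carry in a membrane-anchored form. Its brightest probe set had 7.14, 7.22, 7.19 and 6.96 in the control arrays and 7.75, 7.94 and 8.04 at day 1, again without overlap. It rose by 0.78 (SE 0.14, adjusted p = 0.0232; 0.0647 with the replicate number as a block). The other 2 probe sets of Cp rose by 1.27 (adjusted p = 0.0057) and 0.75 (adjusted p = 0.0167), so all 3 were called. With the replicate number as a block the last had adjusted p = 0.0838, so 1 of the 3 kept the call.

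Of the 27 measured acute phase genes 23 lay above 0 and 5, the ones just described, were called, all higher. With 19 arrays 2 were called, Agt and Lbp, and with the replicate number as a block 4. The list's median difference was 0.14, against 0.01 over all 14217 genes, of which 52.6% lay above 0. Among the others Cd14 (0.76, adjusted p = 0.0691), the interleukin-6 induced glycoprotein Lrg1 (0.39, adjusted p = 0.154) and Cebpb (0.35, adjusted p = 0.141) did not pass, and the receptor gene Il6r had the lowest difference at -0.20. Further members lay nearer 0, each at an unadjusted limma p above 0.05. They included Hp (0.18), Socs3 (0.14), Lcn2 (0.10), Serpina3n (0.09), A2m (0.05), Fgg (0.03), Stat3 (0.01), Orm1 (0.00), Fgb (-0.06) and C3 (-0.10). The mean signal of the list was 5.89 to 6.03 in the control arrays and 6.20 to 6.27 in the day 1 arrays. Such a separation of all day 1 list means above all control ones was found in 12 of the 45 lists, among them the regeneration associated, immediate early, Nrf2 and oxidation genes, and the opposite in 2, the class II genes and the RGK GTPases. The microglia and macrophage markers were among the 12, at 6.44 to 6.50 in control against 6.59 to 6.78, as were the astrocyte markers, at 7.16 to 7.20 against 7.25 to 7.34. Of 15 measured astrocyte markers 11 lay above 0, with a median of 0.04 and no call. Only Gfap (0.64) among them had an unadjusted limma p under 0.05. The part of either cell type in the acute phase result was not tested.

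Promoter windows of 300 bases, from 250 before to 50 after the start, were found in RefSeq (GRCr8) for 27 of the 36 genes that rose and 14 of the 15 that fell. They were searched on both strands for 4 motifs, and 3 windows are printed because they belong to genes of the acute phase and metal groups. No window was found for Agt, Lbp and Cebpd, the other called acute phase genes, so the shares below leave them out. Capitals mark the matches of the searched motifs, each sequence running in the gene's direction.
Steap4, chr4:27054720-27055019, minus strand: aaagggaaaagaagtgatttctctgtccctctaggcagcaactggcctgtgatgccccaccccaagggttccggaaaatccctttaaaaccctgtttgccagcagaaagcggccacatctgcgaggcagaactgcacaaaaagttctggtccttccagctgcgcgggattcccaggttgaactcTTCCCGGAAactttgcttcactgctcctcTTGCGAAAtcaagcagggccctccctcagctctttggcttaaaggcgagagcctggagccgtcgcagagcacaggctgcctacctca
Cp, chr2:104368420-104368719, plus strand: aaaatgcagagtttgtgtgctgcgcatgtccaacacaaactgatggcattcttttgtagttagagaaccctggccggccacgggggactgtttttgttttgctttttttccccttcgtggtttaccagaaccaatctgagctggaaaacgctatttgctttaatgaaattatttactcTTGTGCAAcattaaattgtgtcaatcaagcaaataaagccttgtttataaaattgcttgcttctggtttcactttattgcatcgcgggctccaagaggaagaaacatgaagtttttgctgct
Mt2A, chr19:10838659-10838958, minus strand: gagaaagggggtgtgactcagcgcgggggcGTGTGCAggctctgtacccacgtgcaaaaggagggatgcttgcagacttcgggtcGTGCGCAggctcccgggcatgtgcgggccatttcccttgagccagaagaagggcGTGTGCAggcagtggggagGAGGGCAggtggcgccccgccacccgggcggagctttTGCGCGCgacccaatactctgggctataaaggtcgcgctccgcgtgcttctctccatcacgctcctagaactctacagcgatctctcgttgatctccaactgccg
In the Steap4 window the STAT palindrome (TTCNNNGAA) began 66 bases before the start and a C/EBP motif (TTGCNNAA) 37 bases before it. The Cp window held 1 C/EBP motif, 72 bases before the start, and the Mt2A window 5 cores of the metal response element (TGCNCNC). The STAT palindrome was in 5 of the 27 windows of genes that rose (18.5%; Steap4, Ifitm3, Adamts4, Crip1 and Maff), in 0 of 14 of those that fell and in 8.68% of all 27457 windows. The C/EBP motif was in 6 of 27 (22.2%), 0 of 14 and 10.5%. The glucocorticoid receptor palindrome (ACANNNTGT) was in 2 of 27 (7.41%), 0 of 14 and 6.6%, and the metal core in 14 of 27 (51.9%), 8 of 14 (57.1%) and 50.1%. These shares describe letters in a window and were not tested.

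Metal handling genes overlapped the acute phase group. Mt2A, a metallothionein that binds zinc and copper and answers to metals and glucocorticoids, had 8.02, 8.15, 8.34 and 8.04 in the control arrays and 8.71, 9.02 and 8.80 at day 1. The lowest day 1 array was above the highest control array. It rose by 0.71 (SE 0.08, adjusted p = 0.000817). Of 18 measured genes for metallothioneins, zinc, copper and iron handling 15 lay above 0 and 3 were called, Steap4, Mt2A and Cp, with a median of 0.06. With 19 arrays none of the 3 was called (adjusted p = 1, 0.541 and 0.615), and with the replicate number as a block Cp was not. The metallothionein genes Mt1 (0.01, adjusted p = 0.992, with a low control mean of 4.64) and Mt3 (0.07, adjusted p = 0.839) did not pass. The heme oxygenase gene Hmox1 (0.42, adjusted p = 0.195) and the zinc importer gene Slc39a8 (0.32, adjusted p = 0.271) did not pass, and the copper importer gene Slc31a1 was at -0.15 (adjusted p = 0.505).

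Reactive astrocyte genes showed 4 calls among 24 measured members, all higher: Steap4, Cp, S1pr3 and Chi3l1. With 19 arrays limma called 0 of the 24, and with the replicate number as a block 2, Steap4 and S1pr3. In all 19 of 24 lay above 0, with a median of 0.10. S1pr3, a receptor of the lipid mediator sphingosine-1-phosphate, had 9.95, 9.92, 9.77 and 9.77 in the control arrays and 10.38, 10.29 and 10.39 at day 1. Its groups were apart and it rose by 0.50 (SE 0.06, adjusted p = 0.0012). Chi3l1, a secreted chitinase-like protein of activated astrocytes and macrophages, had 4.86, 4.87, 5.02 and 4.66 against 5.71, 6.23 and 5.97. All day 1 arrays were higher, by 1.12 on average (SE 0.21, adjusted p = 0.0382; 0.0634 with the replicate number as a block), and the call was kept in 1 of the 7 fits with an array left out. Gfap, the intermediate filament of astrocytes, went from 5.18 ± 0.22 (SD, n = 4) to 5.82 ± 0.08 (SD, n = 3) without passing (0.64, adjusted p = 0.0976). Amigo2, an adhesion protein used as a marker of one reactive state in mouse, was at -0.41 (adjusted p = 0.054).

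**Figure D2:**
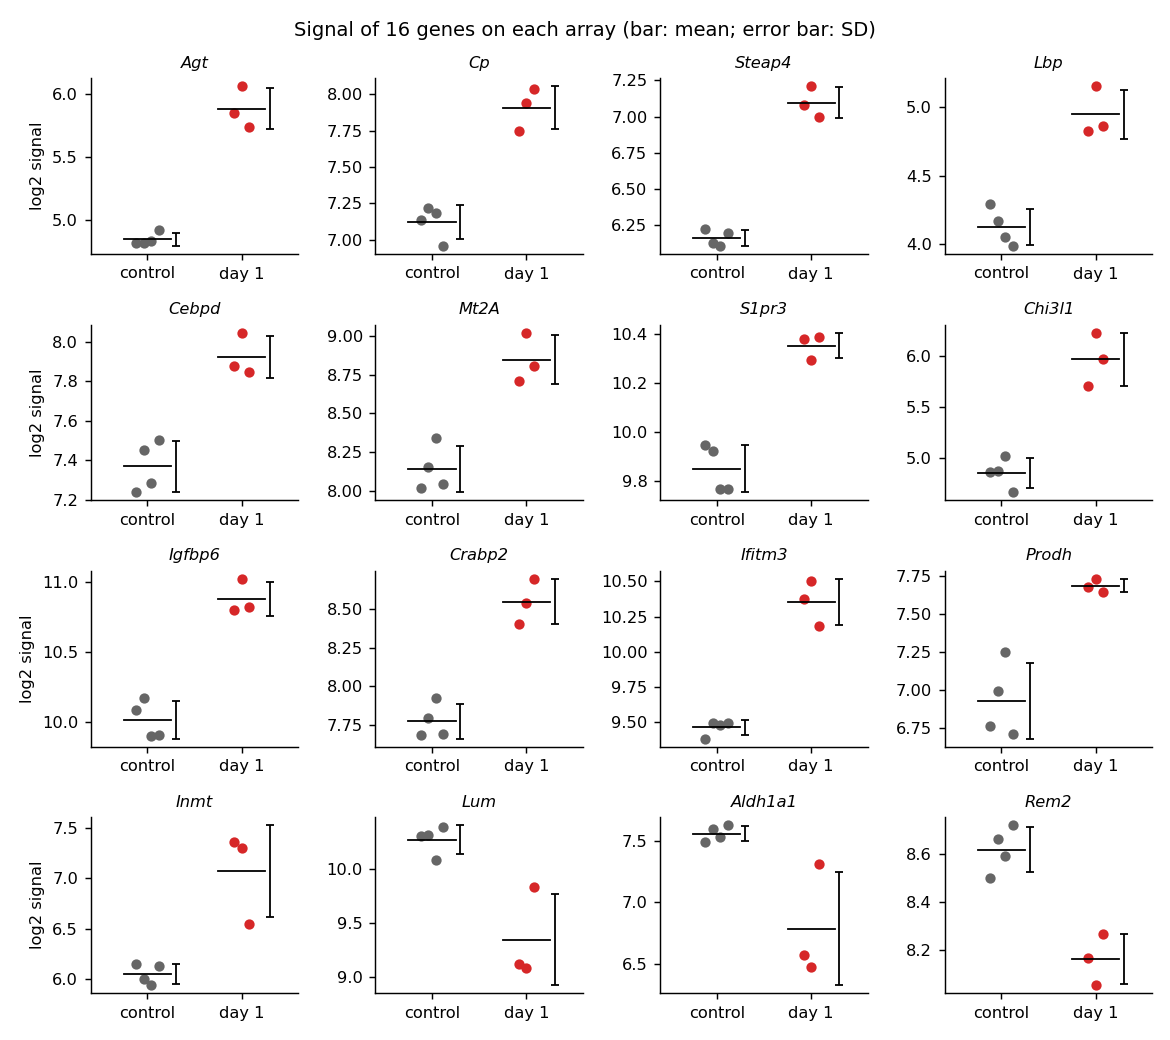
Log2 signal of 16 genes on each of the 4 control arrays (grey) and 3 day 1 arrays (red), with a line at the group mean and an error bar of 1 SD; each panel has its own axis, which does not start at 0. In Agt and Steap4 all day 1 arrays lie well above control, while in Inmt, Lum and Aldh1a1 day 1 replicate 3 lies nearest the control arrays.

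The list of perineuronal net, matrix protease and inhibitor genes was, like the others, chosen with earlier results of these data known. It held 4 calls among 32 measured genes, all higher, with 19 above 0 and a median of 0.04. With 19 arrays 2 were called, Spon2 and Lgi4. Spon2, a secreted matrix protein that also acts in innate immunity, had 5.72, 5.61, 5.39 and 5.54 in the control arrays and 6.25, 6.47 and 6.41 at day 1. The groups did not overlap and Spon2 rose 1.75-fold (0.81, SE 0.08, adjusted p = 0.000684). Timp4, an inhibitor of matrix metalloproteinases, had 6.76, 6.61, 6.64 and 6.65 against 7.17, 7.54 and 7.15. All day 1 arrays were above control, and it rose by 0.62 (SE 0.08, adjusted p = 0.004). Adamts4, a protease that cleaves aggrecan and other lecticans, had 5.78, 5.50, 5.64 and 5.43 against 6.16, 6.21 and 6.18. The day 1 arrays lay within 0.1 of each other, and the rise of 0.60 (SE 0.11) had adjusted p = 0.0438 and 0.0598 with the replicate number as a block. Lgi4, in this list though known as a secreted protein needed for peripheral myelination in mouse, rose by 0.64 (adjusted p = 0.000817). The gelatinase gene Mmp2 was at -0.53 (adjusted p = 0.435).

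Single members of the insulin-like growth factor and retinoid lists were called. Igfbp6, which binds insulin-like growth factor 2 with preference, had 10.09, 10.17, 9.90 and 9.91 in the control arrays and 10.80, 11.02 and 10.82 at day 1. The groups were separate, it rose by 0.86 (SE 0.10, adjusted p = 0.0011), and its second probe set rose by 0.83. Of the other 15 measured members of that family none was called; Igfbp5 had the lowest difference, -0.80 (adjusted p = 0.311). Crabp2, which carries retinoic acid to its receptor, had 7.69, 7.79, 7.92 and 7.69 against 8.41, 8.54 and 8.70. It rose by 0.78 (SE 0.09, adjusted p = 0.000885). Aldh1a1, which makes retinoic acid from retinaldehyde, had 7.49, 7.59, 7.53 and 7.62 against 6.58, 6.48 and 7.31. Day 1 replicate 3 lay close under the controls and the other arrays far below. It fell by 0.77 (SE 0.15, adjusted p = 0.0489; 0.0931 with the replicate number as a block). Of 20 measured retinoid genes 10 lay above 0, with a median of 0.02.

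Ifitm3, a membrane protein that blocks virus entry and is induced by interferons and by interleukin-6, had 9.38, 9.49, 9.48 and 9.50 in the control arrays and 10.38, 10.50 and 10.18 at day 1. All day 1 arrays were above all controls, and the rise was 0.89 (SE 0.13, adjusted p = 0.0072). It was the only call among 32 measured interferon-stimulated and class I genes. Of the 32, 27 lay below 0, with a median of -0.12, and 4 were higher and 5 lower at an unadjusted p under 0.05. The list's mean overlapped between the groups, at 6.56 to 6.83 in the control arrays, control replicate 4 being the highest, and 6.47 to 6.68 at day 1. Ifitm1 (0.30) and Ifitm2 (0.28), its relatives, did not pass (adjusted p = 0.389 and 0.454), and the antiviral gene Rsad2 had the lowest difference at -0.59 (adjusted p = 0.314).

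Several enzyme genes rose as well. Prodh, the mitochondrial proline dehydrogenase, had 6.76, 6.99, 7.25 and 6.71 in the control arrays and 7.68, 7.73 and 7.65 at day 1. The day 1 arrays were closer together than the controls, and it rose by 0.76 (SE 0.11, adjusted p = 0.0043). A second Prodh probe set did not share its sign. Inmt, which methylates indolamines, had 6.15, 6.01, 5.95 and 6.13 against 7.36, 7.30 and 6.55. Day 1 replicate 3 was nearest the controls. The rise of 1.01 (SE 0.17) had adjusted p = 0.0222, and 0.0921 with the replicate number as a block. The list of fatty acid, proline and amino acid oxidation had 18 of 25 members above 0 and a median of 0.06. Its calls were these 2 genes, although Inmt encodes a methyltransferase, and neither call held with 19 arrays.

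Pla1a, a phospholipase that acts on phosphatidylserine, rose by 0.82 (SE 0.12, adjusted p = 0.0069), from 5.47 ± 0.18 (SD, n = 4) to 6.29 ± 0.15 (SD, n = 3). Mgst2, a microsomal glutathione transferase that can make leukotriene C4, rose by 0.63 (SE 0.09, adjusted p = 0.0069). Acer2, a Golgi ceramidase upstream of sphingosine-1-phosphate, rose by 0.63 (adjusted p = 0.0232; 0.127 with the replicate number as a block). Fxyd1, which regulates the sodium pump, rose by 0.66 (adjusted p = 0.0197; 0.0818 with the block). In each of these 4 genes the day 1 arrays lay above all control arrays. Abcg2, an efflux transporter of the blood-brain barrier, rose by 0.43 (adjusted p = 0.019; 0.0902 with the block), the only call among 25 endothelial and pericyte markers, whose median was 0.04.

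Gpnmb, a transmembrane glycoprotein of macrophages and of activated microglia, had 6.64, 7.03, 6.99 and 6.87 in the control arrays and 7.76, 7.89 and 7.66 at day 1. The groups were well apart and it rose 1.85-fold (0.89, SE 0.14, adjusted p = 0.0087). It was the only call among 24 microglia and macrophage markers, of which 18 lay above 0, with a median of 0.16. The hemoglobin scavenger receptor Cd163 (0.49, adjusted p = 0.0797) and the complement gene C1qc (0.62, adjusted p = 0.165) did not pass. The microglial cytoskeletal gene Aif1 had the lowest difference of the list at -0.34. Of 17 complement genes 12 lay above 0, limma called none, and 4 were higher and 1 lower at an unadjusted p under 0.05; the list's mean was 7.30 to 7.45 in the control arrays and 7.46 to 7.59 at day 1.

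A further set of called genes falls outside the naming rule, and they were named after their values were seen. The sodium pump regulator Fxyd3 rose by 0.58 (adjusted p = 0.0034), the dystrophin-related Drp2 by 0.50 (adjusted p = 0.0075), the cadherin Cdh15 by 0.49 (adjusted p = 0.0043) and the sugar transporter Slc50a1 by 0.47 (adjusted p = 0.0077). Of the 5 probe sets of Drp2 only 3 had a positive difference. Maff, a small Maf transcription factor, rose by 0.43 (adjusted p = 0.0438). The others that rose were Phyhd1 (0.56), Tnfrsf11b, a decoy receptor of the ligand RANKL (0.42), the endothelial adhesion receptor Adgrl4 (0.41), Crip1 (0.41), Tmem88, an inhibitor of Wnt signalling (0.39), and the secreted protease Htra1 (0.36). Of these Tnfrsf11b, Adgrl4, Crip1, Tmem88 and Htra1 lost the call with the replicate number as a block, at adjusted p between 0.0709 and 0.1584.

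For 3 genes, Enpep, Tmod2 and the collagen gene Col15a1 described with the falls, a called probe set was not the brightest and the brightest was not called. The aminopeptidase gene Enpep, whose product turns angiotensin II into angiotensin III, had 6.88, 6.79, 6.80 and 6.94 in the control arrays and 7.38, 7.44 and 7.44 at day 1. That probe set rose by 0.57 (SE 0.07, adjusted p = 0.0013), while the brighter one was at -0.03 (adjusted p = 0.98), so the probe sets of Enpep disagreed. In the neuronal tropomodulin gene Tmod2 1 of 3 probe sets was called, at 0.38 (adjusted p = 0.033), and the others were at 0.36 and 0.27. Of the renin-angiotensin list, 12 measured genes, 9 lay above 0 and Agt alone was called by its brightest probe set.

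Among the genes that fell, Lum had the largest change. It encodes lumican, a proteoglycan of collagen fibrils made by fibroblasts of meninges and vessels, and had 10.31, 10.31, 10.09 and 10.39 in the control arrays and 9.12, 9.09 and 9.83 at day 1. Again day 1 replicate 3 stood between the controls and the other day 1 arrays. Lum fell by 0.93 (SE 0.17, adjusted p = 0.041; 0.0536 with the replicate number as a block; 0.192 with 19 arrays). Myoc, the secreted glycoprotein myocilin, had 9.81, 9.87, 9.91 and 9.61 against 9.19, 9.25 and 9.29. Its groups were apart with little spread at day 1, and it fell by 0.56 (SE 0.09, adjusted p = 0.0102). A probe set of the basement membrane collagen Col15a1 that is not its brightest fell by 0.88 (adjusted p = 0.0079; 0.0346 with 19 arrays), and the brightest was at -0.54 (adjusted p = 0.222).

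Rem2, a small GTPase of the RGK family that restrains voltage-gated calcium channels, had 8.50, 8.67, 8.59 and 8.72 in the control arrays and 8.17, 8.05 and 8.26 at day 1. All day 1 arrays were below all controls. It fell by 0.46 (SE 0.06, adjusted p = 0.0043), and its second probe set by 0.47 (adjusted p = 0.017; 0.076 with the replicate number as a block). Pmp2, the fatty acid binding protein of peripheral myelin, had 9.40, 9.36, 9.08 and 8.93 against 8.52, 8.64 and 8.52. The control arrays spread more widely than the day 1 arrays. It fell by 0.63 (SE 0.12, adjusted p = 0.0464). Dixdc1, a Wnt pathway protein with a DIX domain, fell by 0.37 (SE 0.05, adjusted p = 0.0069).

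The other 8 falls lay between 0.29 and 0.42, and each lost the call with the replicate number as a block. They were the matrix protein Efemp1 (-0.42), the phospholipase Abhd3 (-0.41), the RNA-binding Mex3b (-0.36), the immune surface protein Cd83 (-0.36), Jhy, a gene of ependymal cilia in mouse (-0.35), the mitochondrial carbonic anhydrase Car5b (-0.33), Art3 (-0.31) and Taf1b, a factor of RNA polymerase I (-0.29). Blocked adjusted p ran from 0.0709 for Abhd3 to 0.173 for Taf1b. Over the 14 genes that fell, day 1 replicate 3 was nearest the control mean in 9, and over the 34 that rose in 16. That array also had the highest beta-actin 3' minus 5' value of the group, 1.26, and the part of RNA quality was not tested. Without it 72 probe sets were called, 40 higher and 32 lower.

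Of the class II antigen presentation genes, which microglia and perivascular macrophages carry, 5 of 14 measured had low values at day 1 without passing. Cd74, the invariant chain, had 9.32, 9.42, 9.17 and 9.37 in the control arrays and 8.28, 8.25 and 8.85 at day 1, and RT1-Bb had 8.85, 8.99, 8.62 and 8.85 against 7.63, 7.71 and 8.37. Both had all day 1 arrays below the controls, with day 1 replicate 3 nearest. The differences were -0.86 (adjusted p = 0.141) and -0.92 (adjusted p = 0.179), and those of RT1-Ba (-0.89), RT1-Da (-0.87) and RT1-Db1 (-0.77) did not pass either. A second RT1-Bb probe set did not share the sign of the one given. Limma called none of the 14 measured class II genes, these 5 had an unadjusted p under 0.05, and the list's median was -0.02, since the other 9 lay between -0.03 and 0.19.

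**Figure D3:**
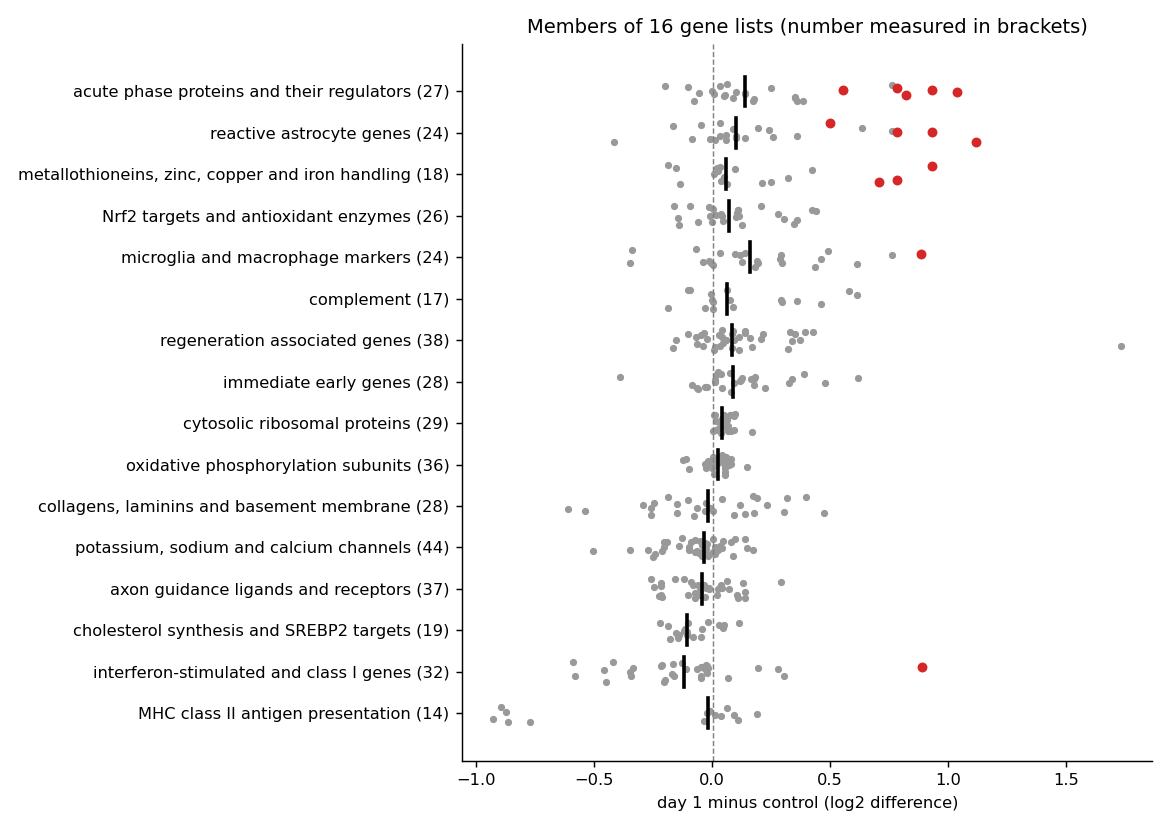
Day 1 minus control log2 difference (x axis) of every measured member of 16 gene lists, with called members in red, a bar at each list's median and a dashed line at the median of all genes, 0.01. Of the lists drawn, the top 3 hold most called members, and Steap4 and Cp are in all 3. Lists not drawn, such as the matrix list with 4, also hold calls. The class II list splits into 5 genes between -0.92 and -0.77 and the rest near 0.

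Lists of axon injury, activity, channel and synapse genes held no called member by brightest probe set. Atf3, a transcription factor that axotomy induces in sensory and motor neurons, had 5.88, 5.84, 5.86 and 6.11 in the control arrays and 7.16, 7.17 and 8.64 at day 1. All day 1 arrays were above the controls, and day 1 replicate 3 was much higher than the other day 1 arrays. The difference, 1.73 (SE 0.37), was the largest of all 14217 genes, at adjusted p = 0.0972. Jun (0.34, adjusted p = 0.347), Gadd45a (0.43, adjusted p = 0.196), the growth cone protein Gap43 (-0.06, adjusted p = 0.852) and Sprr1a (0.08, adjusted p = 0.948) did not pass. Of 38 regeneration associated genes 29 lay above 0 (median 0.09), 7 higher and 0 lower at an unadjusted limma p under 0.05. Of 28 immediate early genes 22 lay above 0 (median 0.09), 6 higher and 1 lower at that level, with Fos at 0.33 (adjusted p = 0.674).

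Of 44 potassium, sodium and calcium channel genes 29 lay below 0, with a median of -0.03 and 5 lower and 0 higher at that level, and the calcium channel subunit Cacnb4 was at -0.35 (adjusted p = 0.271). Glutamate and GABA receptors (31 measured), synaptic vesicle genes (25), axon guidance genes (37), axon growth genes (31) and neurotrophic genes (29) had medians between -0.04 and -0.01 and no call, with 1 member higher and 0 to 4 lower in each list at an unadjusted p under 0.05. The vesicle protein Sv2b, at 0.41, passed with the replicate number as a block (adjusted p = 0.0197) and not without it (adjusted p = 0.485). Deep layer and corticospinal markers had a median of 0.00 over 20 genes and no call (1 higher and 2 lower at an unadjusted p under 0.05), with the layer V factor Bcl11b at -0.09 (adjusted p = 0.893) and the corticospinal marker Crym at -0.20 (adjusted p = 0.415).

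Clock genes held some of the larger differences without a call, 3 of 20 being higher and 4 lower at an unadjusted p under 0.05. The output genes Dbp (-0.95, adjusted p = 0.485), Nr1d2 (-0.59, adjusted p = 0.167) and Tef (-0.51, adjusted p = 0.198) were low, and Bmal1 (0.51, adjusted p = 0.389), Npas2 (0.34, adjusted p = 0.305) and Nfil3 (0.39, adjusted p = 0.271) were high. Dbp had the lowest difference of all genes. The sources used here do not give the hour of dissection, and its part was not tested. Bmal1, Npas2, Nfil3 and Dbp were named after their values were seen.

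Antioxidant genes of the Nrf2 pathway had 19 of 26 members above 0, 8 of them at an unadjusted p under 0.05 and none lower at that level, with a median of 0.07 and no call. Gpx3, the secreted glutathione peroxidase, was at 0.44 (adjusted p = 0.141) and the glutathione transferase gene Gstm1 at 0.28 (adjusted p = 0.121). Over all 14217 genes 663 were higher and 464 lower at that level. Cholesterol synthesis genes had 15 of 19 below 0 and a median of -0.10, with Fdft1, which makes squalene, at -0.22 (adjusted p = 0.132). All 29 measured ribosomal protein genes lay above 0, by a median of 0.04, and none reached an unadjusted p under 0.05. Their mean signal overlapped between the groups, at 11.39 to 11.49 in the control arrays and 11.45 to 11.53 at day 1. Oxidative phosphorylation (36 measured, median 0.03), hypoxia and glycolysis (24, median 0.00), heat shock (21, median -0.01), Atf4 targets (30, median 0.03), cell cycle (31, median -0.01) and cell death genes (24, median -0.02) had no call. At an unadjusted limma p under 0.05 these 6 lists had 14 members higher and 4 lower, 7 of the higher ones being Atf4 targets. Of 25 glucocorticoid targets Cebpd alone was called, with a median of 0.03, and of 32 cytokine and chemokine genes none was, with Cntf at 0.49 (adjusted p = 0.271) and Cxcl9 at -0.38 (adjusted p = 0.142). Collagens, laminins and basement membrane genes had no call by brightest probe set, with Lamb2 at 0.47 (adjusted p = 0.186).

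Of 12 lists of cell type markers 9 had no called member. Oligodendrocyte markers (20 measured, median 0.04), their precursors (8, median 0.04), interneuron (19, median 0.02), upper layer (11, median 0.04), choroid plexus (14, median 0.03), blood (15, median 0.04) and striatal markers (11, median 0.00) lay near the median of all genes, with at most 3 members a list at an unadjusted p under 0.05 in 1 direction. The oligodendrocyte enzyme gene Aspa (-0.47, adjusted p = 0.139) and the leukocyte gene Cd48 (-0.35, adjusted p = 0.0799) were low, and neither passed. Meningeal and perivascular fibroblast markers went both ways, with Crabp2 higher and Lum and Myoc lower, and a median of 0.02 over 24 genes. Their mean signal was 7.627 to 7.885 in the control arrays and 7.548 to 8.004 at day 1, so the groups overlapped. Whether the amount of meninges taken with the cortex bears on the matrix and retinoid genes was not tested.

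A number of the genes called at day 1 also differed between day 1 and day 3. The comparison of day 1 with day 3 uses the same day 1 arrays, so it is no separate support for the rises. It called 63 probe sets (0.203%), 48 higher and 15 lower at day 1. Steap4 was 5.78 at day 3, below its control mean of 6.16, and differed from day 1 by 1.31 (adjusted p = 8.68e-05). Agt (1.02, adjusted p = 0.000109), Cebpd (0.69, adjusted p = 0.0016), Mt2A (0.66, adjusted p = 0.0033) and Lbp (0.75, adjusted p = 0.0134) also had lower signals at day 3. The count of 63 fell to 27 and 23 without day 1 replicates 1 and 2, and to 22, 25 and 38 without day 3 replicates 1, 2 and 3.

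A few called genes had a day 3 mean nearer to day 1 than to control. Gpnmb was 7.44 at day 3, between 6.88 in control and 7.77 at day 1, and Adamts4 was 6.02 at day 3 and between 5.89 and 5.98 later, against 5.59 in control. For neither did day 1 and day 3 differ past the threshold (adjusted p = 0.592 and 0.802). Pmp2 was 8.65 at day 3 and 8.51 at day 49, as low as the 8.56 of day 1. Cd83 was 7.24 at day 3 against 7.17 at day 1. Gfap, not called against control, was 0.83 higher at day 1 than at day 3 (adjusted p = 0.0273), and was 6.02 at day 14.

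Against the mean of days 3 to 49, 121 probe sets were called (0.39%), 90 higher and 31 lower at day 1. This comparison too uses the same day 1 arrays and is no separate support. By brightest probe set the largest of the named genes were Steap4 (1.12) and Igfbp6 (1.04), followed by Chi3l1 (0.97) and Agt (0.96). A probe set of Cp that is not its brightest was at 1.22. The count of 121 fell to 46 and 35 without day 1 replicates 1 and 2, to 78 without day 7 replicate 2, and to 80 and 71 without day 14 replicates 1 and 3.

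**Figure D4:**
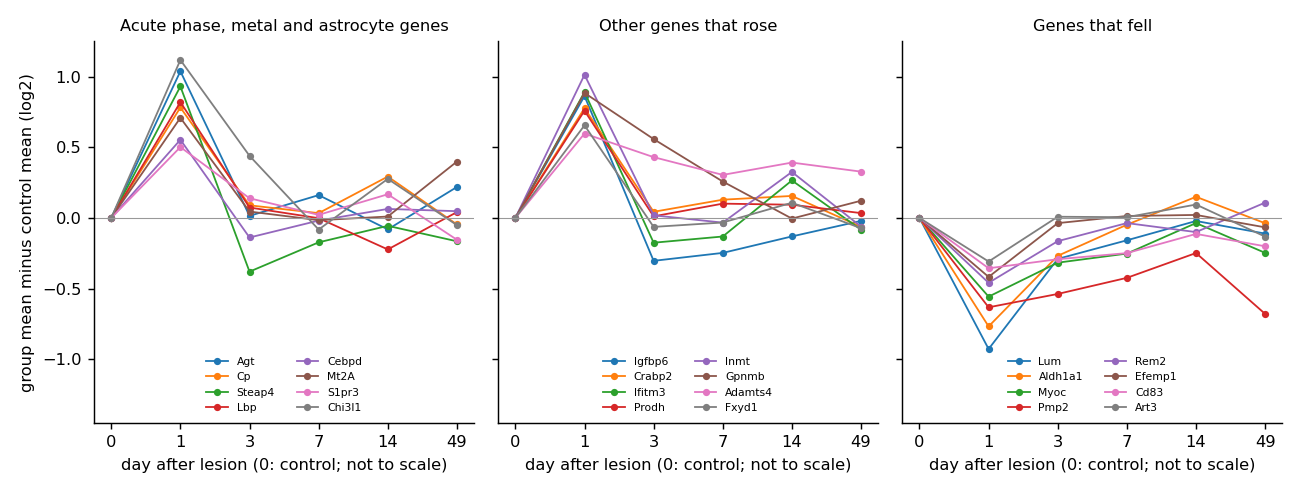
Group mean minus control mean (log2, y axis) at each time after the lesion (x axis, not to scale) for 24 called genes, with 4 control arrays, 3 arrays at days 1 to 7 and 2 arrays at days 14 and 49. Most lines lie furthest from 0 at day 1. Many of the genes that rose are near 0 at day 3, while Chi3l1, Gpnmb and Adamts4 stay above it and Steap4 and Igfbp6 go below it. Among the genes that fell, Efemp1 and Art3 are near 0 at day 3, and Lum, Aldh1a1, Myoc, Pmp2, Rem2 and Cd83 are still below it.

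Of the 13 called probe sets without a named gene, 7 were higher, by 0.31 to 1.39, and 6 lower, by -0.29 to -0.62. With the replicate number as a block 5 of the 13 lost the call, 1 higher and 4 lower, at adjusted p between 0.0729 and 0.16. The one with the largest rise had 7.06, 7.18, 6.38 and 7.33 in the control arrays and 8.33, 8.25 and 8.55 at day 1 (adjusted p = 0.0057). It returned to 7.09 at day 3.

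**Figure D5:**
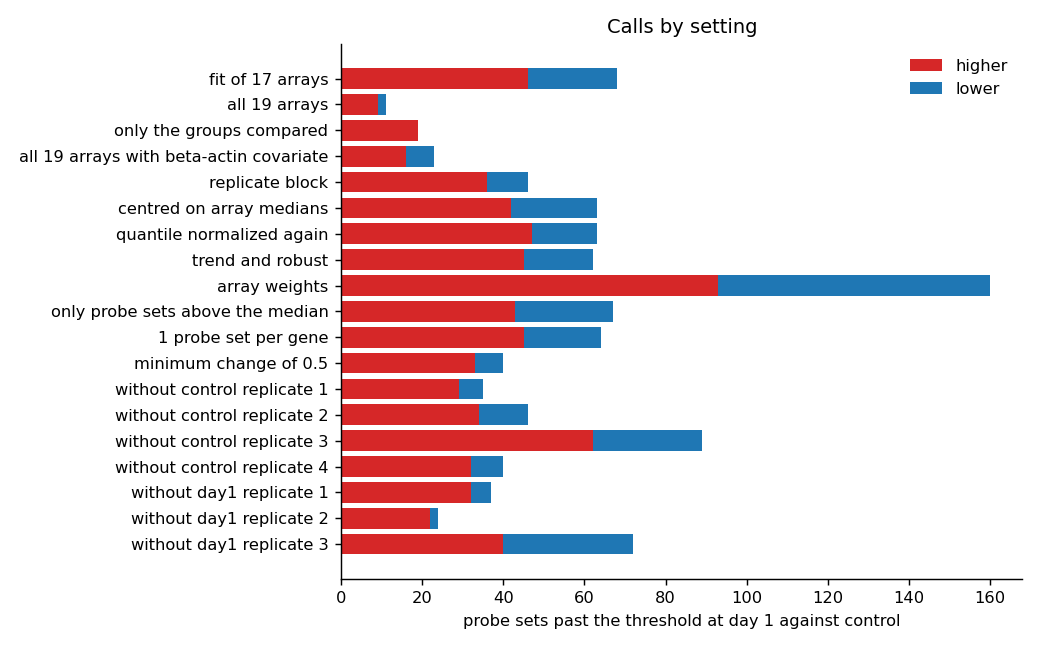
Number of probe sets called at day 1 against control (x axis) in the fit of 17 arrays and in each alternative, split into higher (red) and lower (blue). The bars run from 11 with 19 arrays to 160 with array weights, and higher calls outnumber lower ones in each.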

How the data were processed

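The deposited log2 signals were made by the authors with RMA, which corrects background, normalizes by quantiles and summarizes the probes of a set, per the submitters' processing notes; no version is given in the sources used here. Since RMA equalizes the distributions of the arrays, a change common to most transcripts is invisible. Depth does not apply to arrays, whose number limits the precision. Batches of scanning or labelling were not analysed here, and group and batch cannot be told apart where they coincide.

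Of 31099 probe sets, 57 array controls were left out and 31042 tested. The platform annotation, updated through the RefSeq gene table, gave 1 symbol for 20826 probe sets, several for 436 and none here for 9780; 14217 genes were each represented by the probe set with the highest mean over the 17 arrays.

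Limma 3.58.1 in R 4.3.3 fitted 6 group means over 17 arrays (eBayes defaults, two-sided, 11 residual and 4.38 prior degrees of freedom), with Benjamini-Hochberg adjustment over all probe sets and a threshold of 0.05. "Called", "rose" and "fell" mean past that threshold. The fit was tested on simulated data. The 45 gene lists (1055 of 1194 entries matched), the comparison and the tests were chosen with earlier results of these data known. Lists are described by counts and medians, without a test.

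Genes were named by a rule: the called genes of largest change, up to 20 risen and 20 fallen, every gene called with 19 arrays, of each list up to 4 called members or, with none, the 2 members of smallest p, and 8 genes in any case (Gap43, Atf3, Sprr1a, Jun, Fos, Gfap, Crym and Bcl11b). Other list members printed with a value that the rule does not name, such as Il6r, Cd14, Lrg1, Cebpb, Hmox1, Slc39a8, Slc31a1, Amigo2, Igfbp5, Mmp2, Rsad2, Ifitm1, Ifitm2, Cd163, Aif1 and the RT1 genes other than RT1-Bb, were named after their values were seen.

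The labels give the groups the same replicate numbers. For the 3 like-numbered pairs of control and day 1 arrays, the correlations of their deviations from group means were 0.166, 0.117 and 0.269, each over 0.1. Of the unlike-numbered pairs, control 4 with day 1 replicate 2 (0.142) and control 1 with day 1 replicate 2 (0.108) were also over 0.1. By the rule on like-numbered pairs the numbers were taken as pairing the arrays, although the unlike-numbered pair at 0.142 lay above the like-numbered one at 0.117. The calls, differences and SE printed are still those of the fit without the block, and so are the words "rose" and "fell". With the pairing in the fit 46 probe sets were called, and 22 of the 48 genes lost the call. The blocked value is given where it changes a call. Alternatives were all 19 arrays, only the groups compared, a beta-actin covariate, the block, centring, quantile normalization again, trend and robust eBayes, array weights, a filter at the median, 1 probe set per gene, a minimum change of 0.5 and each array left out. Figures were made in Python 3.11.15 with matplotlib 3.10.9.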

Additional observations from a re-analysis of the deposited data

Results flagged for a closer look

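The control arrays of 99 named genes were examined for 1 array far from the other 3, and 6 genes had one. Chance gives such an array in about 1 of 20 groups. Control replicate 4 stood apart in Agt, at 4.92, above the others, and in the small heat shock protein gene Cryab, at 10.15, below the others. Control replicate 1 stood apart in Ifitm3, at 9.38, and in the oligodendrocyte lineage factor gene Olig1, at 3.45, both below the others. In Olig1, a dim gene, the other control arrays all had the same value, 3.49, so the flag rests on a small gap. Control replicate 2 was high in the GABA receptor gene Gabrd, at 6.77, and control replicate 3 low in the kainate receptor gene Grik1, at 8.80. In Agt and Ifitm3 all day 1 arrays lay above each of the control arrays, the outlying one included.

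The effect at day 1 differed from that at day 3 for 22 of the named genes, by the limma test of day 1 minus day 3 with adjusted p under 0.05. The controls cancel in that difference, and the day 1 arrays are those by which most of these genes were named. Higher at day 1 were the acute phase genes Steap4 (1.31), Agt (1.02), Lbp (0.75) and Cebpd (0.69) and the metallothionein gene Mt2A (0.66). The astrocyte genes Gfap (0.83) and S1pr3 (0.36) were higher too. Among secreted, matrix and binding proteins were Igfbp6 (1.17), Spon2 (0.85), Crabp2 (0.73), the laminin gene Lamb2 (0.71), Lgi4 (0.69) and Timp4 (0.60). Ifitm3 (1.07), Inmt (1.00), Pla1a (0.93), Prodh (0.75), Fxyd1 (0.72), Acer2 (0.63), Mgst2 (0.62) and Abcg2 (0.44) were also higher at day 1, and Art3 (-0.32) was lower. Of these, Gfap and Lamb2 were not called against control.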

How the results depend on the processing

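The number of probe sets called moved with the arrays that set the shared spread. For day 1 against control it was 68, against 11 with all 19 arrays, 19 with only the groups compared, 23 with all 19 arrays and a beta-actin covariate, 160 with array weights and 40 with a minimum change of 0.5. With 1 array of either group left out it ran from 24 to 89. For day 1 against day 3 it was 63, against 8, 25, 17 and 559 in the first 4 of these settings, and 22 to 69 with 1 array left out. For day 1 against days 3 to 49 it was 121, against 22 with all 19 arrays, 49 with the covariate, 386 with array weights and 55 with the minimum change, and 35 to 145 with 1 array left out. The cause was not tested, beyond that fewer arrays leave fewer degrees of freedom. The replicate block gave 46, 83 and 125 calls in these comparisons, in each case within 1.5 times of the unblocked count, and ended the call of 22 of 48 genes in the first. Centring, quantile normalization again, trend and robust settings, the filter at the median and 1 probe set per gene kept each count within 1.5 times. Of the 37 called genes that the naming rule took, none turned its sign in any alternative run. Of 495 list medians recomputed, 476 stayed within the replicate spread, and 18 of 45 lists turned the sign of a median in at least 1 setting.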
